A study of Homo sapiens with 12 samples.

Results

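The genes described here encode the machinery by which a presynaptic terminal releases synaptic vesicles. They were listed by symbol, and each of the 38 symbols matched 1 of the 63925 Ensembl gene IDs that every count file holds. Polyadenylated RNA had been sequenced from neural cultures of the human embryonic stem cell lines H9 and H1, grown for 10 weeks under a dual SMAD inhibition protocol. All cultures were kept in a medium with ascorbic acid, cyclic AMP, BDNF and GDNF. They then received either 1 µM dexamethasone, a synthetic glucocorticoid, or DMSO vehicle for 6 h. Each line thus has a vehicle group and a dexamethasone group, with 3 sister cultures in each of the 4 groups. The stem cells had been kept on mouse embryonic fibroblast feeders before differentiation. The labels name no genetic change in either line. Each line is 1 line, so a difference between H9 and H1 cannot be told apart from a difference between their differentiations. Replicates are sister cultures, so p-values measure only the spread between sister cultures.

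Synaptic vesicles carry transmitter to the active zone, the patch of presynaptic membrane where release takes place. There they dock, are primed for fusion, and fuse when calcium enters through nearby channels. SNARE proteins of vesicle and plasma membrane pull the membranes together, synaptotagmins sense calcium, complexins act on the assembled SNAREs, and NSF takes spent SNARE complexes apart. Synapsins hold a reserve of vesicles, UNC13 and RIM proteins prime them, Bassoon, Piccolo and ERC proteins build the active zone scaffold, and RAB3 GTPases travel on the vesicles.

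Of the 38 genes, 34 had enough reads to be tested. Levels are CPM, the usual depth-scaled read count, after TMM scaling of the libraries, and levels of different genes are compared only per kb of exon. On that scale SYT11, a synaptotagmin that does not bind calcium, had the highest mean of the group in both lines, at 87.7 CPM per kb in H9 vehicle and 142 in H1 vehicle. In H9 vehicle it was followed by the vesicle glycoprotein SV2A (74.7 CPM per kb), the GTPase RAB3A (55.4) and the plasma membrane SNARE SNAP25 (54.0). Their order was not settled by the cultures, since SD over the 3 cultures was 32.7 around 101 CPM for RAB3A and 54.5 around 181 CPM for SNAP25. In H1 vehicle SV2A was at 40.7 CPM per kb, RAB3A at 35.6 and the calcium sensor SYT1 at 34.3. At the low end were RPH3A, a RAB3 effector, at 0.584 CPM per kb in H9 vehicle, SV2B at 0.319 and the priming factor UNC13C at 0.0563.

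**Figure D1:**
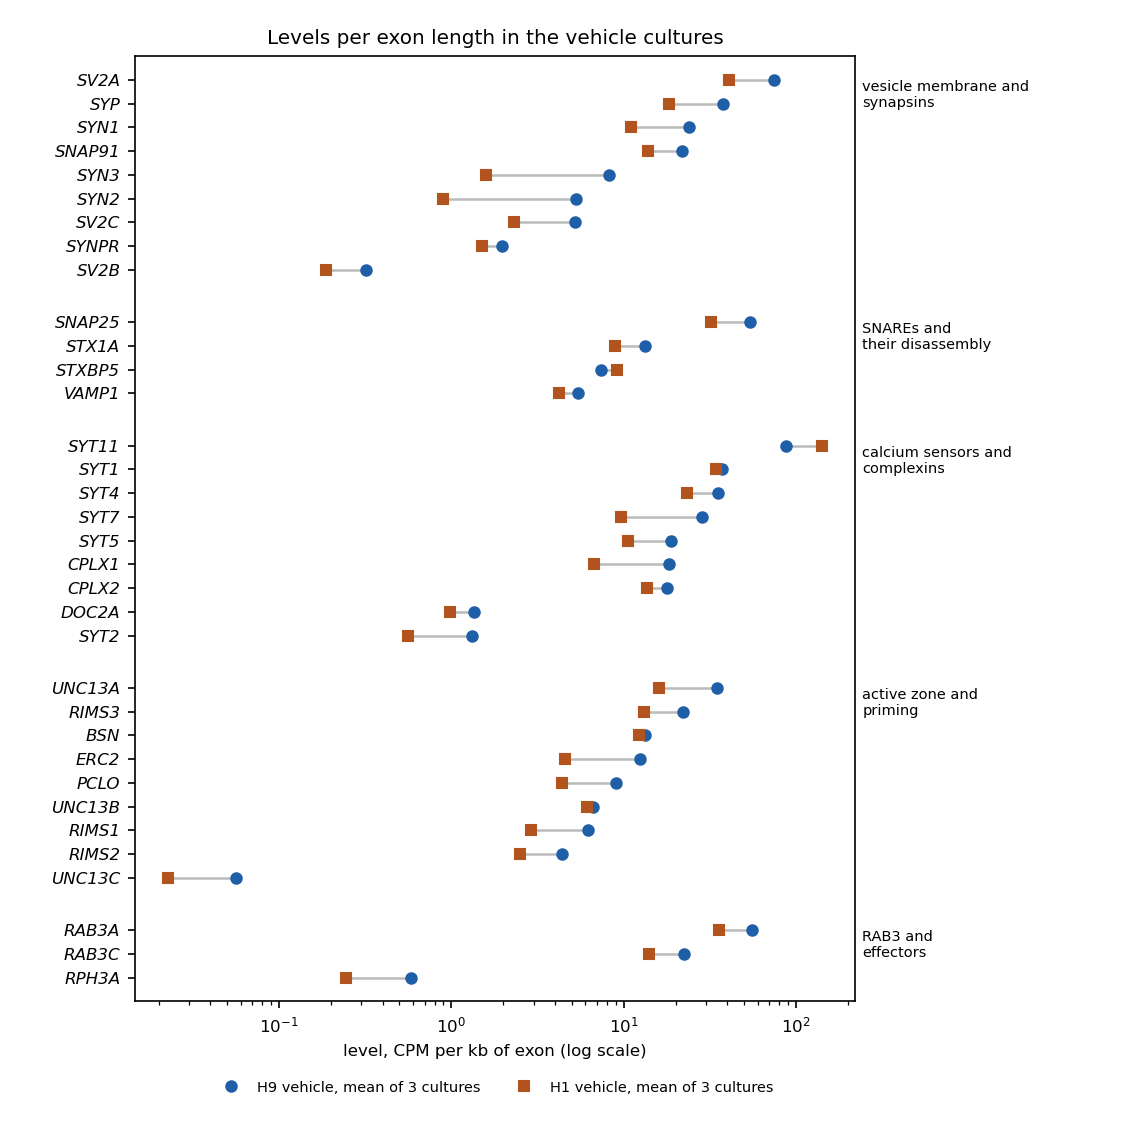
Mean level of each tested gene in the 3 H9 vehicle cultures (circles) and the 3 H1 vehicle cultures (squares), in CPM per kb of exon on a log axis, ordered by role. SYT11 is the gene with the highest level in both lines and lies further right in H1 (142) than in H9 (87.7), while SYN2 and SYN3 show the widest gaps in the other direction.

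The other 4 genes were under 1 CPM in every library and were not tested. NSF and CPLX3, a complexin known from retina, were listed at 0 in all 12 libraries, and a count of 0 allows up to 3 counts, or 0.109 to 0.203 CPM depending on the library, from counting error alone. VAMP2, the main vesicle SNARE of forebrain neurons, was listed at 0 to 0.446 CPM. DOC2B, a calcium sensor, was listed at 0.0781 to 0.612 CPM. Within 500 kb on either side of NSF, 11 of 14 protein-coding genes (78.6%) were also under 1 CPM in every library, against 32.2% of all 19835 protein-coding genes. Around VAMP2 it was 11 of 36 (30.6%). CPLX3 shares 99.7% of its exon bases with another annotated gene on the same strand. How reads with several matches were counted is not given in the sources used here, and its part in these low values was not tested.

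The neuronal label was checked against 14 neuron markers. The dendritic marker MAP2 was at 1300 to 1823 CPM over the 12 libraries and the migrating-neuron marker DCX at 610 to 1557 CPM. TUBB3 and MAPT, which neurons normally express strongly, were under 1 CPM in every library. Library depth lay between 14751168 counts (culture 3 of H9 vehicle) and 27505804. That culture stood apart from its sisters. Mitochondrially encoded genes took 0.607% of its counts, while the remaining H9 cultures had 4.8% to 5.64% and the H1 cultures 2.91% to 3.23%. Over the release genes it deviated from its group by a root mean square log2 distance of 0.472, and the remaining libraries by 0.0767 to 0.264. Line differences of the release genes are therefore also given without it, and every test with all libraries includes its spread.

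H9 was first set against H1 in the vehicle cultures. Of the 34 genes tested, 26 were higher in H9, 1 was lower (SYT11) and 7 did not pass (edgeR's quasi-likelihood F-test, Benjamini-Hochberg adjusted over all 17819 genes, threshold 0.05). The same test called 46.9% of all genes, 25.7% as higher in H9 and 21.2% as lower. The median log2 difference was 0.78 over the release genes and 0.03 over all genes. Leaving out H9 vehicle culture 3 gave 29 of 35 genes higher and 2 lower (SYT11 and BSN), with a median of 0.75 and a background of 58.6% called (30.1% higher, 28.6% lower). The 29 include VAMP2, which entered this fit only through its H9 vehicle reads. The dexamethasone cultures give the same comparison in other libraries. There 24 of 34 were higher in H9 and 1 lower, against 43.6% of all genes called (22.5% higher, 21.2% lower), with a median of 0.81. Leaving out that same H9 vehicle culture, whose spread also enters this test, these counts were 28 and 2 of 35 (64.6% of all genes called, 31.9% higher and 32.8% lower). The 28 include VAMP2 and UNC13C, which passed the read filter through H9 cultures. In both treatments 23 genes were higher and SYT11 was lower, against 18.3% and 14.7% of all genes.

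The separation of the cultures gave a like count. In 24 of the 34 genes every H9 vehicle culture lay above every H1 vehicle culture, and in SYT11 every one lay below (background 27.5% above and 27.2% below). In the dexamethasone cultures 27 genes lay above without overlap, and SYT11 and BSN below (background 33.7% and 34.5%). The 27 include UNC13C, which passed the read filter through the H9 cultures.

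**Figure D2:**
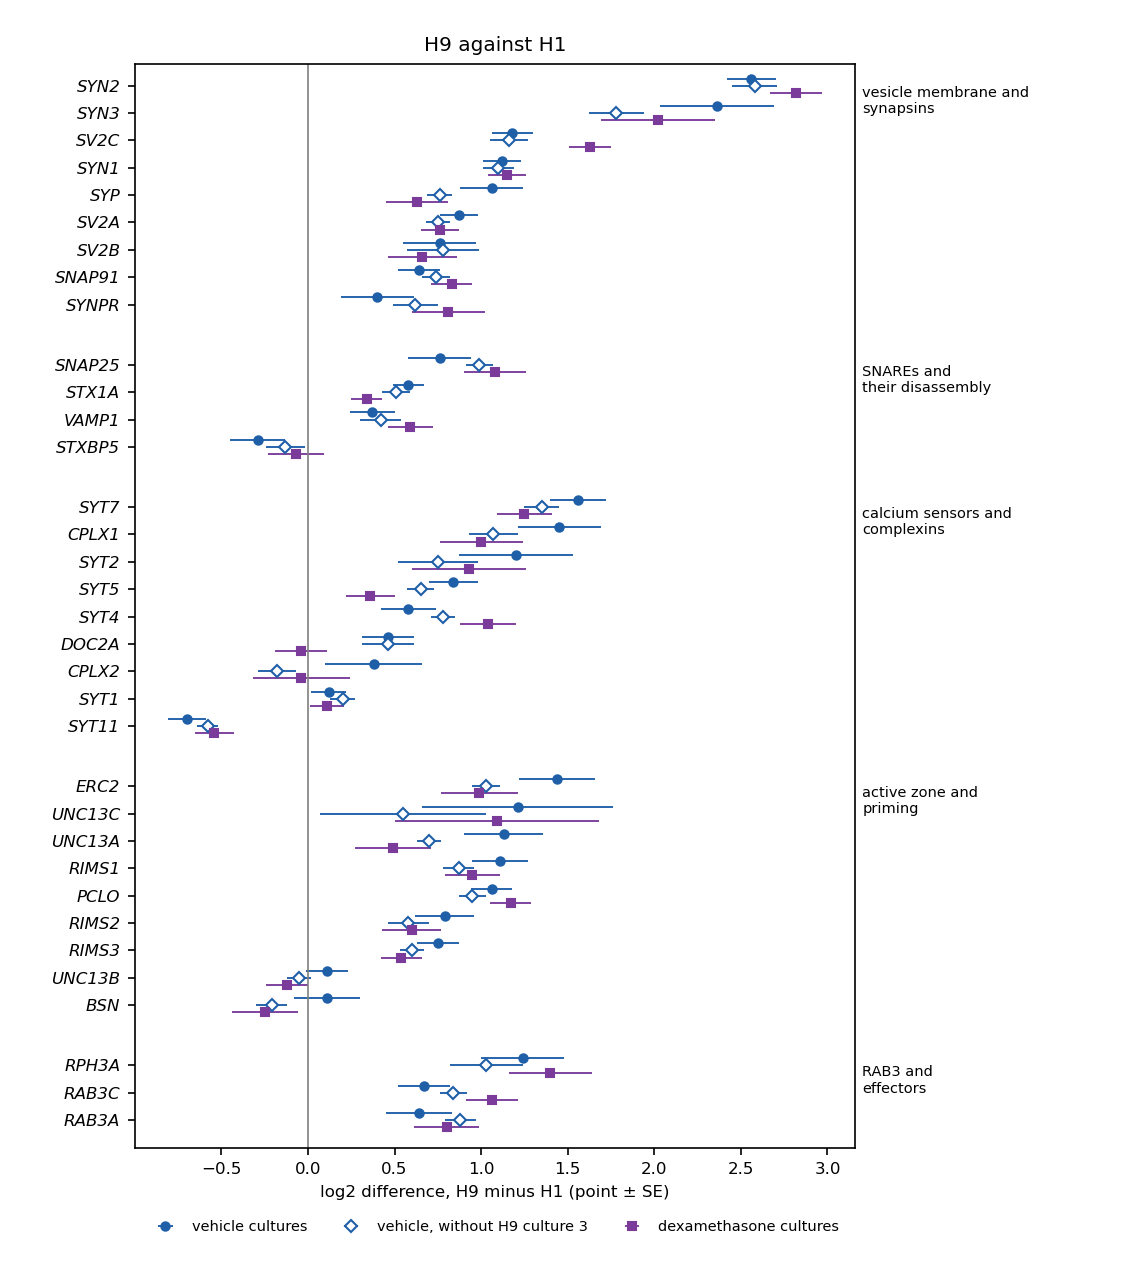
Log2 difference H9 minus H1 (points, with bars of 1 SE) for the 34 tested genes in the vehicle cultures, in the vehicle cultures without H9 culture 3 and in the dexamethasone cultures. In the vehicle cultures 32 points lie to the right of 0, with SYN2 (2.56) and SYN3 (2.36) farthest out and SYT11 (−0.70) to the left. With libraries scaled to neuron markers, which is not plotted, 11 genes pass as higher and 5 as lower (9.83% and 57.2% of all genes).

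Neuron markers were also higher in H9 as a sum, though not each of them. Their summed level was 8058 to 8537 CPM in H9 vehicle, 9102 to 9339 in H9 dexamethasone, 5415 to 5541 in H1 vehicle and 5415 to 6017 in H1 dexamethasone. Of the 14 markers, 8 were higher in H9 vehicle and 1, ELAVL4, was lower, with a median of 0.71 (25.7% and 21.2% of all genes). NEFL, a neurofilament subunit, differed by 2.05 ± 0.21 (log2 ± SE), while MAP2 differed by 0.05 ± 0.11 and did not pass. The summed level of the release genes was 3925 to 4708 CPM in H9 vehicle and 2975 to 3088 in H1 vehicle. With dexamethasone it was 3996 to 4293 CPM in H9 and 3012 to 3100 in H1. In bulk RNA, fewer cells of a type and less RNA per cell cannot be told apart.

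Markers of other cells were counted in the same way. Of all genes 25.7% were higher in H9 vehicle and 21.2% lower (30.1% and 28.6% without H9 vehicle culture 3). All 9 proliferation markers were lower in H9 (median −2.67, summed 73.4 to 101 CPM in H9 vehicle and 478 to 545 in H1 vehicle). Of 9 mesenchymal markers 5 were lower and 1 was higher, with sums of 680 to 772 CPM in H9 vehicle and 3131 to 5324 in H1 vehicle. Of 9 astrocyte markers 5 were higher, with sums of 1551 to 2201 CPM and 936 to 1062 CPM, and 6 were higher without that culture. Progenitor markers had 1 higher and 1 lower of 7 tested, and 1 and 3 without H9 vehicle culture 3 (SOX2 and HES5 were under 1 CPM everywhere). Choroid plexus markers had 3 higher of 5, oligodendrocyte markers 2 higher of 5 tested, or 3 without that culture (SOX10 and MOG under 1 CPM everywhere), and endocrine markers 2 higher and 1 lower of 4 tested (CHGA and INS under 1 CPM everywhere). The counts of the other lists were the same without it. Their part in the differences of the release genes was not tested.

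One alternative scaling, chosen after seeing the data, set each library to the geometric mean of the 12 neuron markers that reach 1 CPM. It lowered the median of all genes to −0.62. On that scale 11 of the 34 release genes were higher in H9 vehicle and 5 lower, where 9.83% of all genes were higher and 57.2% lower. With culture 3 of H9 vehicle left out the counts were 13 higher (VAMP2 among them) and 6 lower of 35 (10.7% and 64.9% of all genes). They were 9 and 8 in the dexamethasone cultures (8.95% and 59.3%), with a median of −0.64 for all genes, and 14 and 9 of 35 with that culture left out (11.5% and 67.6%). The gene groups below are therefore given on both scales.

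Among the vesicle membrane proteins and synapsins, 8 of 9 genes were higher in H9 vehicle and none lower, with a median of 1.06. Of all genes 25.7% were higher and 21.2% lower. Scaled to neuron markers 5 were higher (SYN1, SYN2, SYN3, SYP and SV2C) and none lower (9.83% and 57.2% of all genes). In the dexamethasone cultures all 9 were higher with TMM scaling (22.5% of all genes) and 4 with neuron marker scaling (8.95%). These were SYN1, SYN2, SYN3 and SV2C, the same 4 genes as in vehicle on that scale without H9 vehicle culture 3. This was the role in which the gap between the lines was widest for single genes.

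Synapsins coat vesicles and tether them to each other. SYN2 was at 28.2, 32.8 and 29.3 CPM in the H9 vehicle cultures and at 6.18, 4.12 and 5 CPM in the H1 vehicle cultures. Every H9 culture lay far above every H1 culture, and culture 3 of H9 vehicle lay between its sisters. The log2 difference was 2.56 ± 0.14 (adjusted p = 1.48e-07), 2.58 ± 0.13 without H9 vehicle culture 3, and 2.82 ± 0.15 in the dexamethasone cultures, which were at 30.5, 31.6 and 32.3 CPM in H9 and 4.28, 4.21 and 4.84 in H1. The gene (ENSG00000157152.16) lies at chr3:12004402-12191400 on the plus strand of GRCh38, and TIMP4 on the other strand shares 2.99% of its exon bases.

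SYN3 was at 31.0, 28.6 and 75.1 CPM in H9 vehicle and at 9.45, 8.40 and 8.16 CPM in H1 vehicle. The third H9 culture was far above its sisters, and the lines did not overlap. The log2 difference of 2.36 ± 0.33 (adjusted p = 0.000134) was 1.78 ± 0.16 without that culture, and the dexamethasone cultures gave 2.02 ± 0.33. SYN1 was at 82.5, 98.1 and 92.6 CPM in H9 vehicle and at 40.5, 41.2 and 44.2 CPM in H1 vehicle, again without overlap. It differed by 1.12 ± 0.11 (adjusted p = 7.59e-06), a value that was 1.1 without H9 vehicle culture 3 and 1.15 in the dexamethasone cultures.

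The SV2 glycoproteins are transporter-like proteins of the vesicle membrane. SV2C was at 65.8, 58.6 and 64.2 CPM in H9 vehicle and at 30.1, 25.5 and 27.8 CPM in H1 vehicle, and differed by 1.18 ± 0.12 (adjusted p = 1.26e-05), or 1.16 ± 0.11 without H9 vehicle culture 3. The difference was 1.63 ± 0.12 in the dexamethasone cultures. SV2A was at 312, 350 and 418 CPM against 196, 194 and 199 CPM, a difference of 0.87 ± 0.11 (adjusted p = 5.73e-05) that was 0.75 ± 0.07 without H9 vehicle culture 3. The least abundant of the family, SV2B, was at 4.5, 3.55 and 3.87 CPM against 2.88, 1.72 and 2.44 CPM and differed by 0.76 ± 0.21 (adjusted p = 0.00965), or 0.78 ± 0.21 without it. All 3 genes separated the lines without overlap in both treatments, but scaled to neuron markers only SV2C passed (0.53), with SV2A at 0.22 and SV2B at 0.13.

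Synaptophysin (SYP), the most used marker protein of the vesicle membrane, was at 145, 175 and 271 CPM in H9 vehicle and 91.1, 95.5 and 97.8 CPM in H1 vehicle. The difference was 1.06 ± 0.18, but 0.76 ± 0.07 without H9 vehicle culture 3 and 0.63 ± 0.18 in the dexamethasone cultures. SYP passed on the neuron marker scale (0.39) only with that culture (0.14 without it, and 0.01 in the dexamethasone cultures). SNAP91, a clathrin adaptor that helps retrieve vesicle membrane, differed by 0.64 ± 0.12, and by 0.74 ± 0.08 without H9 vehicle culture 3. Scaled to neuron markers it was at 0.00 in vehicle and 0.21 in the dexamethasone cultures, where it passed only with that culture left out (adjusted p = 0.0116). SYNPR, a relative of synaptophysin, did not pass in vehicle (0.40 ± 0.21, adjusted p = 0.139, interval −0.09 to 0.89). It was at 9.72 and 10.0 CPM in H9 vehicle cultures 1 and 2 but at 5.30 in culture 3, below the H1 values of 6.18, 6.87 and 6.12. Without that culture it passed (0.62 ± 0.13), as it did in the dexamethasone cultures (0.81 ± 0.21).

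**Figure D3:**
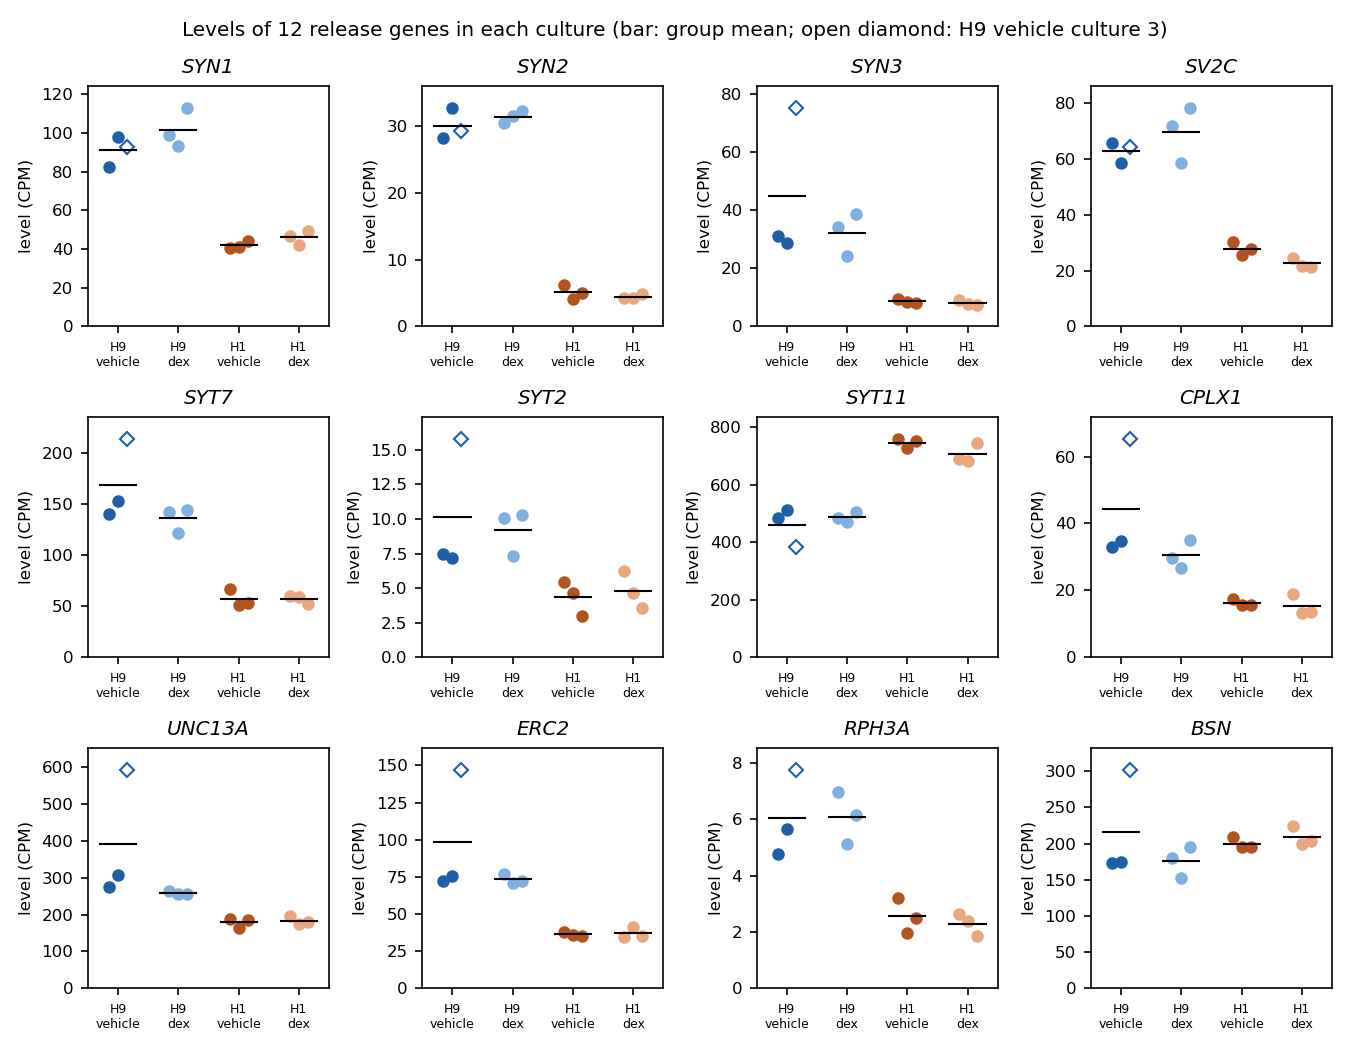
Level in CPM of 12 release genes in each of the 12 cultures, with a bar for the group mean and an open diamond for H9 vehicle culture 3. SYN1, SYN2 and SV2C are spread evenly within their groups and well apart between the lines, SYT11 is the gene that is lower in H9, and the diamond stands far above its sisters in SYN3, SYT2, CPLX1, UNC13A, ERC2 and BSN.

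Sequence before the start site is shown for the synapsins with and without a motif match and for SYT11, the gene that differed in the other direction. Promoter windows from RefSeq (GRCh38.p14), 250 bases before to 50 after each start, were found for 31 of the 38 genes, in 47 windows. They were searched on both strands for the RE1 element bound by the repressor REST (up to 2 mismatches over 19 fixed bases of its 21-base consensus), the cyclic AMP response element (TGACGTCA, exact) and the palindromic glucocorticoid response element (up to 2 mismatches over 12 fixed bases). No search pattern is part of another. The motifs, the mismatch limits and the promoters shown were chosen after values had been seen, and an exploratory scan of partial CRE sites and of an EGR motif is not reported. Each sequence below reads 5′ to 3′ along the gene, and capitals mark a match.
SYN1, 250 bases before the start, chrX:47619858-47620107, minus strand: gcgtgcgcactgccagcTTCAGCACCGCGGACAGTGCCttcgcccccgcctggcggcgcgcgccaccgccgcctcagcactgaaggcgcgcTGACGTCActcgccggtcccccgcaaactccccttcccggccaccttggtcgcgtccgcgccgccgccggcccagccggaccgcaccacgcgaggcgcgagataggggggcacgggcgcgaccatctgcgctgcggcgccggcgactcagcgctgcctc
SYN2, 250 bases before the start, chr3:12004138-12004387, plus strand: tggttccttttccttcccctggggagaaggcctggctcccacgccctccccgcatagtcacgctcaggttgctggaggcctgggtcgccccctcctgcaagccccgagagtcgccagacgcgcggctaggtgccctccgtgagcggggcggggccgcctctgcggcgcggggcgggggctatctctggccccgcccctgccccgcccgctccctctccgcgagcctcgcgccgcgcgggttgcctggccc
SYT11, 250 bases before the start, chr1:155859317-155859566, plus strand: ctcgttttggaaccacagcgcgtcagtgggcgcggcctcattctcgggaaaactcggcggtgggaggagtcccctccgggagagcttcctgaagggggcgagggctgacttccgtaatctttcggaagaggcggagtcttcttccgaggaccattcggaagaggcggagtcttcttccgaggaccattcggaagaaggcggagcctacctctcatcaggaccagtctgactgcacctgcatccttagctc
RPH3A, RE1 match, chr12:112791548-112791568, plus strand: AGCGCTGTCCGTGGTGCTGAC

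The RE1 pattern was in 3 windows of 2 release genes and in 17 of all 35116 windows (0.0484%). In SYN1 it had 1 mismatch and lay at positions −233 to −213, counting the start base as 0. In RPH3A it had 2 mismatches and was on the opposite strand. It fell in a pair of overlapping windows, at positions 10 to 30 from one annotated start and −200 to −180 from the other. The cyclic AMP element was in the SYN1 window alone among these genes (positions −159 to −152), and in 1.85% of all windows. The glucocorticoid element was in none of the 47 windows and in 1.41% of all windows. Neither SYN2 nor SYT11 held any of the patterns in these windows.

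The SNARE group was partly out of reach, since VAMP2 and NSF were not tested. Of the 4 genes tested, 3 were higher in H9 vehicle (median 0.47) and none lower (25.7% and 21.2% of all genes). Scaled to neuron markers none was higher with all libraries and STXBP5 was lower (9.83% and 57.2% of all genes). On that scale without H9 vehicle culture 3, SNAP25 (0.38) was higher (10.7% of all genes). So was VAMP2 (1.55), which entered only through its H9 vehicle reads. On that scale SNAP25 was higher (0.46) and STX1A and STXBP5 were lower in the dexamethasone cultures (8.95% and 59.3%). SNAP25, a SNARE of the plasma membrane, was at 223, 201 and 120 CPM in H9 vehicle and at 114, 101 and 106 CPM in H1 vehicle. The third H9 culture came close to the H1 values. The difference in SNAP25 of 0.76 ± 0.18 (adjusted p = 0.00484) was 0.99 ± 0.08 without that culture and 1.08 ± 0.18 in the dexamethasone cultures. STX1A, the partner SNARE of the plasma membrane, was at 44.0, 49.3 and 53.7 CPM against 32.7, 33.8 and 31.9 CPM and differed by 0.58 ± 0.09. VAMP1, a vesicle SNARE, was at 21.1, 19.3 and 17.8 CPM against 15.8, 14.1 and 15.2 CPM and differed by 0.37 ± 0.13 (adjusted p = 0.0369). Leaving out H9 vehicle culture 3 gave 0.51 for STX1A and 0.42 for VAMP1. On the neuron marker scale both were below 0 and did not pass in vehicle (−0.07 and −0.28). In the dexamethasone cultures STX1A passed there as lower in H9 (−0.28, adjusted p = 0.0242), opposite to its TMM-scaled value of 0.34, and VAMP1 did not pass (−0.03).

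Genes on the opposite strand share 17.9% of the exon bases of STX1A (BUD23) and 9.47% of those of VAMP1 (TAPBPL). The strand setting of the counting is not given in the sources used here, so reads of these partners cannot be told apart. STXBP5, or tomosyn, which competes with VAMP proteins for the plasma membrane SNAREs, was at 93.1, 81.4 and 59.7 CPM in H9 vehicle and at 99.0, 101 and 87.6 CPM in H1 vehicle. The groups overlapped, and the difference of −0.29 ± 0.16 did not pass (interval −0.66 to 0.07). VAMP2 passed the read filter only without H9 vehicle culture 3, where it was at 0. The difference was then 2.15 ± 0.55, on totals of 21 reads in the 3 H9 vehicle cultures and 7 in the 3 H1 vehicle cultures. Its remaining H9 vehicle cultures were at 0.446 and 0.417 CPM, and the cultures of the other groups at 0.0386 to 0.334 CPM. VAMP2 thus entered only through the group where it was highest, so its calls cannot show a line difference.

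The calcium sensors and complexins were mixed. Of 9 genes tested, 6 were higher in H9 vehicle, SYT11 was lower, and SYT1 and CPLX2 did not pass (median 0.58). Of all genes 25.7% were higher and 21.2% lower. Scaled to neuron markers, SYT7 and CPLX1 were higher and SYT1 and SYT11 lower (9.83% and 57.2% of all genes). CPLX2 was also lower without H9 vehicle culture 3 (64.9% of all genes). On the same scale SYT7 was higher and SYT1, SYT11, DOC2A and CPLX2 were lower in the dexamethasone cultures (8.95% and 59.3%). SYT7, a slow, high-affinity calcium sensor, was at 140, 153 and 214 CPM in H9 vehicle and at 67.1, 51.3 and 53.6 CPM in H1 vehicle. It differed by 1.56 ± 0.16 (adjusted p = 1.48e-05), by 1.35 ± 0.10 without H9 vehicle culture 3 and by 1.25 ± 0.16 in the dexamethasone cultures, with no overlap in either treatment.

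SYT1 and SYT2 are the fast calcium sensors of synchronous release. SYT1 was at 242, 271 and 212 CPM in H9 vehicle and at 221, 225 and 223 CPM in H1 vehicle. H9 cultures 1 and 2 lay above all H1 cultures and culture 3 below them, and the difference was 0.12 ± 0.10 (adjusted p = 0.364, interval −0.12 to 0.35). Without culture 3 SYT1 passed as higher in H9 (0.20 ± 0.07, adjusted p = 0.0176), and in the dexamethasone cultures it did not pass (0.11 ± 0.10). On the neuron marker scale it was lower, at −0.53 with culture 3 and −0.41 without it. SYT2 was at 7.5, 7.18 and 15.8 CPM against 5.42, 4.66 and 3.00 CPM and differed by 1.2 ± 0.33 (adjusted p = 0.0106). The value was 0.75 ± 0.23 without H9 vehicle culture 3, and PPP1R12B on the opposite strand shares 27.2% of the exon bases of SYT2. On the neuron marker scale SYT2 did not pass in vehicle (0.54, or 0.14 without H9 vehicle culture 3) or in the dexamethasone cultures (0.31).

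SYT11 was the exception of the group. It was at 483, 513 and 383 CPM in H9 vehicle and at 759, 726 and 751 CPM in H1 vehicle, and at 483, 471 and 506 against 690, 681 and 745 CPM in the dexamethasone cultures. Every H9 culture lay below every H1 culture in both treatments. The log2 difference was −0.70 ± 0.11 in vehicle (adjusted p = 0.000368), −0.58 ± 0.06 without H9 vehicle culture 3 and −0.54 ± 0.11 in the dexamethasone cultures. It was −1.34 when scaled to neuron markers. The gene (ENSG00000132718.8) lies at chr1:155859509-155885199 on the plus strand.

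SYT4, which like SYT11 does not act as a calcium sensor of fast release and is found on dense-core vesicles, was at 185, 173 and 109 CPM in H9 vehicle and at 96.6, 111 and 103 CPM in H1 vehicle. Culture 3 overlapped H1, and the difference of 0.58 ± 0.16 was 0.78 ± 0.07 without it and 1.04 ± 0.16 in the dexamethasone cultures. SYT5 differed by 0.84 ± 0.14 in vehicle but did not pass in the dexamethasone cultures (0.36 ± 0.14, adjusted p = 0.0539), where it did pass with H9 vehicle culture 3 left out of the fit (0.36 ± 0.08, adjusted p = 0.000603). DOC2A, a calcium sensor linked to spontaneous release, differed by 0.46 ± 0.15 in vehicle and by −0.04 ± 0.15 in the dexamethasone cultures. Without H9 vehicle culture 3 the vehicle difference was 0.65 ± 0.08 for SYT5 and 0.46 ± 0.15 for DOC2A. On the neuron marker scale SYT4 was at −0.05 in vehicle, 0.17 without H9 vehicle culture 3 and 0.42 in the dexamethasone cultures, where it passed only with that culture left out (adjusted p = 0.000112). DOC2A was at −0.18 in vehicle, which did not pass, and was lower in the dexamethasone cultures (−0.67, adjusted p = 0.00153). SYT5 was at 0.18 in vehicle and −0.26 in the dexamethasone cultures, where it passed as lower only with that culture left out (adjusted p = 0.00889).

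The complexins CPLX1 and CPLX2 had different values. CPLX1 was at 33.1, 34.9 and 65.3 CPM in H9 vehicle and at 17.4, 15.7 and 15.6 CPM in H1 vehicle, and differed by 1.45 ± 0.24 (adjusted p = 0.000512). This was 1.07 ± 0.14 without H9 vehicle culture 3, and 1.00 ± 0.24 in the dexamethasone cultures. CPLX2 was at 78.8, 92.8 and 209 CPM against 98.3, 96.6 and 97.1 CPM. With all libraries its difference was 0.38 ± 0.28 (adjusted p = 0.288, interval −0.27 to 1.04), and without culture 3, whose 209 CPM was the 1 H9 value above H1, it was −0.18 ± 0.11 (adjusted p = 0.162).

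In the active zone and priming group 6 of 9 genes were higher in H9 vehicle and none lower, with a median of 1.06. Of all genes 25.7% were higher and 21.2% lower. Leaving out H9 vehicle culture 3 gave 6 higher and 1 lower (BSN), with a median of 0.60 (30.1% and 28.6%). Scaled to neuron markers RIMS1, PCLO and ERC2 were higher and UNC13B and BSN lower, with or without that culture. Of all genes 9.83% were higher and 57.2% lower on that scale, or 10.7% and 64.9% without that culture. On that scale UNC13B and BSN were also lower and PCLO higher in the dexamethasone cultures (59.3% of all genes lower, 8.95% higher). RIMS1 and ERC2 were higher there too with H9 vehicle culture 3 left out (11.5% of all genes higher, 67.6% lower). UNC13 proteins open syntaxin so that SNAREs can assemble. UNC13A was at 274, 308 and 593 CPM in H9 vehicle and at 188, 164 and 185 CPM in H1 vehicle. The third H9 culture was far above its sisters. The difference of 1.13 ± 0.23 (adjusted p = 0.00166) was 0.70 ± 0.07 without it. In the dexamethasone cultures, at 263, 255 and 257 against 196, 174 and 180 CPM, it was 0.49 ± 0.22. This did not pass with all libraries (adjusted p = 0.0949) and did without H9 vehicle culture 3 (adjusted p = 8.5e-06). On the neuron marker scale UNC13A did not pass in vehicle (0.46, or 0.09 without H9 vehicle culture 3) or in the dexamethasone cultures (−0.13).

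Its relative UNC13B was at 99.0, 112 and 143 CPM in H9 vehicle and 114, 105 and 109 CPM in H1 vehicle. The groups overlapped, and the difference was 0.11 ± 0.12 (adjusted p = 0.472, interval −0.17 to 0.39). UNC13C, at 0.417 to 1.5 CPM in H9 vehicle and 0.160 to 0.551 in H1 vehicle, differed by 1.21 ± 0.55 and did not pass (adjusted p = 0.0902, interval −0.06 to 2.48). Its totals were 45 reads in H9 vehicle and 24 in H1 vehicle. Without H9 vehicle culture 3 the difference was 0.55 ± 0.48 in vehicle (adjusted p = 0.343). In the dexamethasone cultures it was 1.09 ± 0.59 with all libraries, which did not pass, and 1.09 ± 0.44 without that culture, which did (adjusted p = 0.041). Every H9 culture was at 0.417 CPM or more. Among the H1 cultures only vehicle culture 1 (0.551 CPM) reached that level, the others being at 0.116 to 0.351 CPM. UNC13C thus passed the read filter through the line where it was high, so this call cannot show a line difference.

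Bassoon (BSN) and Piccolo (PCLO) are giant related scaffolds of the active zone. PCLO was at 202, 184 and 238 CPM in H9 vehicle and at 107, 92.1 and 100 CPM in H1 vehicle, and differed by 1.06 ± 0.12 (adjusted p = 2.17e-05). It differed by 0.95 ± 0.08 without H9 vehicle culture 3 and by 1.17 ± 0.12 in the dexamethasone cultures. BSN was at 173, 174 and 302 CPM against 209, 195 and 196 CPM. Cultures 1 and 2 of H9 lay below all H1 cultures and culture 3 above them, so the difference was 0.11 ± 0.19 with it (interval −0.32 to 0.54) and −0.21 ± 0.09 without it (adjusted p = 0.0467). In the dexamethasone cultures BSN was at 180, 153 and 196 against 224, 200 and 204 CPM, a difference of −0.25 ± 0.19 that did not pass with all libraries (adjusted p = 0.312) and passed as lower with H9 vehicle culture 3 left out (−0.25 ± 0.08, adjusted p = 0.00979).

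ERC2, a scaffold that binds RIM proteins, was at 72.5, 75.7 and 147 CPM in H9 vehicle and at 37.7, 35.7 and 35.3 CPM in H1 vehicle. Its difference was 1.44 ± 0.22 (adjusted p = 0.000273), and 1.03 ± 0.08 without H9 vehicle culture 3. The RIM proteins link vesicles, calcium channels and UNC13. RIMS1 differed by 1.11 ± 0.16, RIMS2 by 0.79 ± 0.17 and RIMS3 by 0.75 ± 0.12 in vehicle. Without H9 vehicle culture 3 the values were 0.87, 0.58 and 0.60, and in the dexamethasone cultures 0.95, 0.60 and 0.54, with no overlap in either treatment. On the neuron marker scale without H9 vehicle culture 3, RIMS2 (−0.03) and RIMS3 (−0.01) were just below 0 and did not pass.

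All 3 genes of the RAB3 group were higher in H9 vehicle (median 0.67) and in the dexamethasone cultures (median 1.06). Of all genes 25.7% and 22.5% were higher. RAB3A, which guides vesicles to the active zone, was at 109, 128 and 64.6 CPM in H9 vehicle and at 60.8, 69.0 and 64.2 CPM in H1 vehicle. Culture 3 lay within the H1 range, and the difference of 0.64 ± 0.19 (adjusted p = 0.0167) was 0.88 ± 0.09 without it. RAB3C was at 251, 233 and 162 CPM against 129, 139 and 138 CPM and differed by 0.67 ± 0.15, or 0.84 ± 0.08 without H9 vehicle culture 3. RPH3A, or rabphilin, was at 4.78, 5.64 and 7.75 CPM against 3.22, 1.95 and 2.48 CPM and differed by 1.24 ± 0.24 (adjusted p = 0.0012), or 1.03 ± 0.21 without it. On the neuron marker scale the calls in vehicle turned on that culture. With it RPH3A passed (0.59) and RAB3A (0.00) and RAB3C (0.03) did not, and without it RAB3A (0.26) and RAB3C (0.22) passed and RPH3A (0.43, adjusted p = 0.051) did not. RAB3C (0.44) and RPH3A (0.78) passed on that scale in the dexamethasone cultures, and RAB3A (0.18) did not. Of all genes 9.83% were higher on that scale in vehicle, 10.7% without H9 vehicle culture 3, and 8.95% in the dexamethasone cultures.

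A wider list of 59 other presynaptic genes, among them further synaptotagmins, liprins, endocytosis proteins and vesicular transporters, had 56 genes tested. With TMM scaling, the only scale given for this list, 35 were higher in H9 vehicle and 6 lower (median 0.66), against 25.7% and 21.2% of all genes. In the dexamethasone cultures 30 were higher and 3 lower (22.5% and 21.2% of all genes). Without H9 vehicle culture 3 the counts were 37 and 7 in vehicle (30.1% and 28.6% of all genes). They were then 39 and 5 in the dexamethasone cultures (31.9% and 32.8%). The largest differences in vehicle with all libraries were those of SYT3 (2.74 ± 0.20), the liprin PPFIA3 (1.99 ± 0.41) and SYT12 (1.93 ± 0.35). SYT3 was at 32.0, 36.8 and 43.6 CPM in H9 vehicle and 4.07, 5.61 and 7.08 CPM in H1 vehicle. The places of PPFIA3 and SYT12 rested on H9 vehicle culture 3, since without it they were at 1.07 and 1.22. The largest without it were SYT3 (2.62), SLC6A17 (1.80) and SYT9 (1.71), the last 2 of which were named after their values were seen. The lower genes were led by SLC17A7, the vesicular glutamate transporter VGLUT1 (−1.45 ± 0.40), at 1.70, 1.88 and 3.26 CPM in H9 vehicle and 8.73, 5.23 and 4.32 CPM in H1 vehicle. SNAP23, the SNAP25 relative of non-neuronal cells, followed (−0.92 ± 0.20), and then SLC17A6, or VGLUT2 (−0.57 ± 0.22, and −0.31 without H9 vehicle culture 3, where the liprin PPFIA1 was at −0.56).

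H9 vehicle culture 3 did not differ from its sisters evenly across the release genes. It lay above both sisters in 19 of the 34 genes (55.9%), below both in 10 (29.4%) and between them in 5, where over all genes 45.2% were above and 45% below. All 9 active zone and priming genes were above both, from 0.31 on the log2 scale for PCLO to 1.66 for UNC13C. These genes are long, with 7.24 to 22.9 kb of exon, and the part of length was not tested. Outside that group SYN3 (1.33), CPLX2 (1.29) and SYT2 (1.1) were the farthest above. SYNPR (−0.90), RAB3A (−0.88), SNAP25 (−0.83) and SYT4 (−0.71) were the farthest below. The summed level of progenitor markers was 8193 CPM in this culture against 4866 to 5163 in its sisters, and that of astrocyte markers 1551 against 1908 to 2201. Their part in its pattern, and that of its low mitochondrial share, was not tested.

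**Figure D4:**
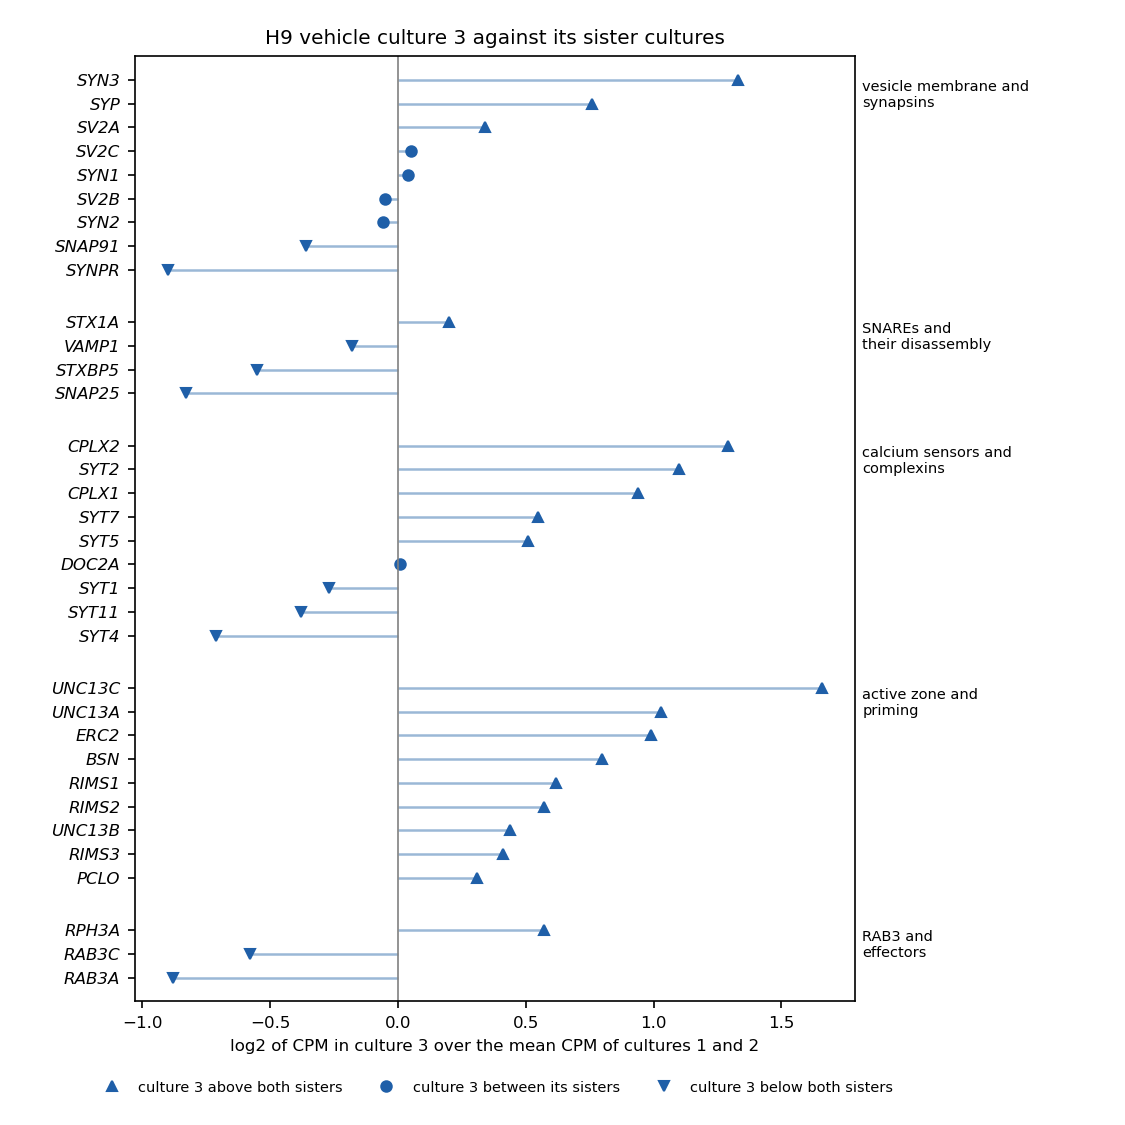
Log2 ratio of the CPM in H9 vehicle culture 3 to the mean CPM of cultures 1 and 2, for the 34 tested genes by role, with upward triangles where culture 3 is above both sisters, downward triangles where it is below both and circles where it is between. All 9 active zone and priming genes are upward triangles (0.31 to 1.66), while 3 of the 4 SNARE genes are downward ones.

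Dexamethasone was then set against vehicle within each line. None of the 34 release genes passed in H9, in H1 or in the difference of the effects, with all libraries or without H9 vehicle culture 3, with TMM scaling (edgeR's quasi-likelihood F-test). The background was small too. In H9 0.0673% of all genes passed (12 genes, all higher), in H1 0.0505% (9 genes, all higher), and in the difference 0%. With H9 vehicle culture 3 left out it was 0.293% in H9 (0.254% higher, 0.0387% lower) and 0.326% in H1 (0.166% higher, 0.16% lower). At an unadjusted p under 0.05 there were 4 of the 34 release genes in H9, 2 in H1 and 3 in the difference. Over all 17819 genes there were 2898 in H9, 526 in H1 and 1329 in the difference. DESeq2 and limma-voom also called 0 release genes in each at the adjusted threshold. The median log2 effect was −0.04 in H9 and 0.01 in H1.

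The intervals limit how large an effect could have gone unseen. In H1 the 95% interval of the log2 effect lay within −1 and 1 for 33 of the 34 genes, all but UNC13C. In H9 it did so for 29, the others being SYN3, CPLX1, CPLX2, UNC13A and UNC13C. Without H9 vehicle culture 3, where the median SE was 0.09 in place of 0.16, it did so for 33 of 35 in H9. The other 2 were VAMP2 and UNC13C, both with few reads.

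The smallest p in H9 belonged to UNC13A. Its cultures were at 274, 308 and 593 CPM with vehicle and at 263, 255 and 257 CPM with dexamethasone, so all 3 treated cultures lay below all vehicle cultures. The effect of −0.60 ± 0.22 (adjusted p = 0.299) was −0.17 ± 0.07 (adjusted p = 0.401) without H9 vehicle culture 3. RAB3C was at 251, 233 and 162 CPM with vehicle and 282, 278 and 283 CPM with dexamethasone, an effect of 0.38 ± 0.14 (adjusted p = 0.299) that was 0.22 ± 0.08 without that culture. SYT4, at 185, 173 and 109 and then 199, 214 and 205 CPM, had an effect of 0.40 ± 0.16 (adjusted p = 0.301), and 0.21 ± 0.07 without it. These genes and DOC2A (8.95, 8.43 and 8.77 CPM, then 8.33, 5.68 and 7.63) were the 4 without overlap in H9, 2 above and 2 below, where 9.76% and 11.6% of all genes were.

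In H1 the smallest p belonged to SV2C, at 30.1, 25.5 and 27.8 CPM with vehicle and at 24.6, 21.6 and 21.4 CPM with dexamethasone. All treated cultures lay below all vehicle cultures, with an effect of −0.30 ± 0.12 (unadjusted p = 0.0268, adjusted p = 1). With libraries scaled to neuron markers and H9 vehicle culture 3 left out, it passed as lower (−0.42, adjusted p = 0.0309). There 1.12% of all genes were lower and 0.177% higher. With TMM scaling and the same libraries SV2C did not pass (−0.30 ± 0.10, adjusted p = 0.289). The 14 neuron markers then had a median effect of 0.11 in H1, with 11 positive and 3 negative. Scaling to markers that rise lowers the values of other genes. In H9 the effect on SV2C was 0.15 ± 0.12, and the difference between the lines, 0.45 ± 0.17, did not pass (adjusted p = 0.548). STX1A was at 32.7, 33.8 and 31.9 and then 40.3, 35.5 and 38.1 CPM in H1, an effect of 0.21 ± 0.09 (adjusted p = 1). SYT5 was at 55.0, 55.6 and 58.9 and then 71.9, 61.3 and 69.5 CPM, an effect of 0.26 ± 0.14 (adjusted p = 1).

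Without overlap in H1 were 7 genes above (SYP, SV2A, STX1A, SYT1, SYT5, DOC2A and RAB3A) and SV2C below, where 7.15% and 6.98% of all genes were. DOC2A was thus above its vehicle cultures in H1 (0.23 ± 0.15) and below them in H9 (−0.27 ± 0.15), and the difference of −0.50 ± 0.22 did not pass (adjusted p = 0.548). SYN1 and SYN2, which separated the lines clearly, had effects of 0.16 ± 0.11 and 0.06 ± 0.13 in H9 and 0.13 ± 0.11 and −0.20 ± 0.15 in H1. Of the 56 other presynaptic genes tested, none passed in either line. At an unadjusted p under 0.05 there were 12 in H9 and 2 in H1, where of all 17819 genes 2898 were in H9 and 526 in H1.

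**Figure D5:**
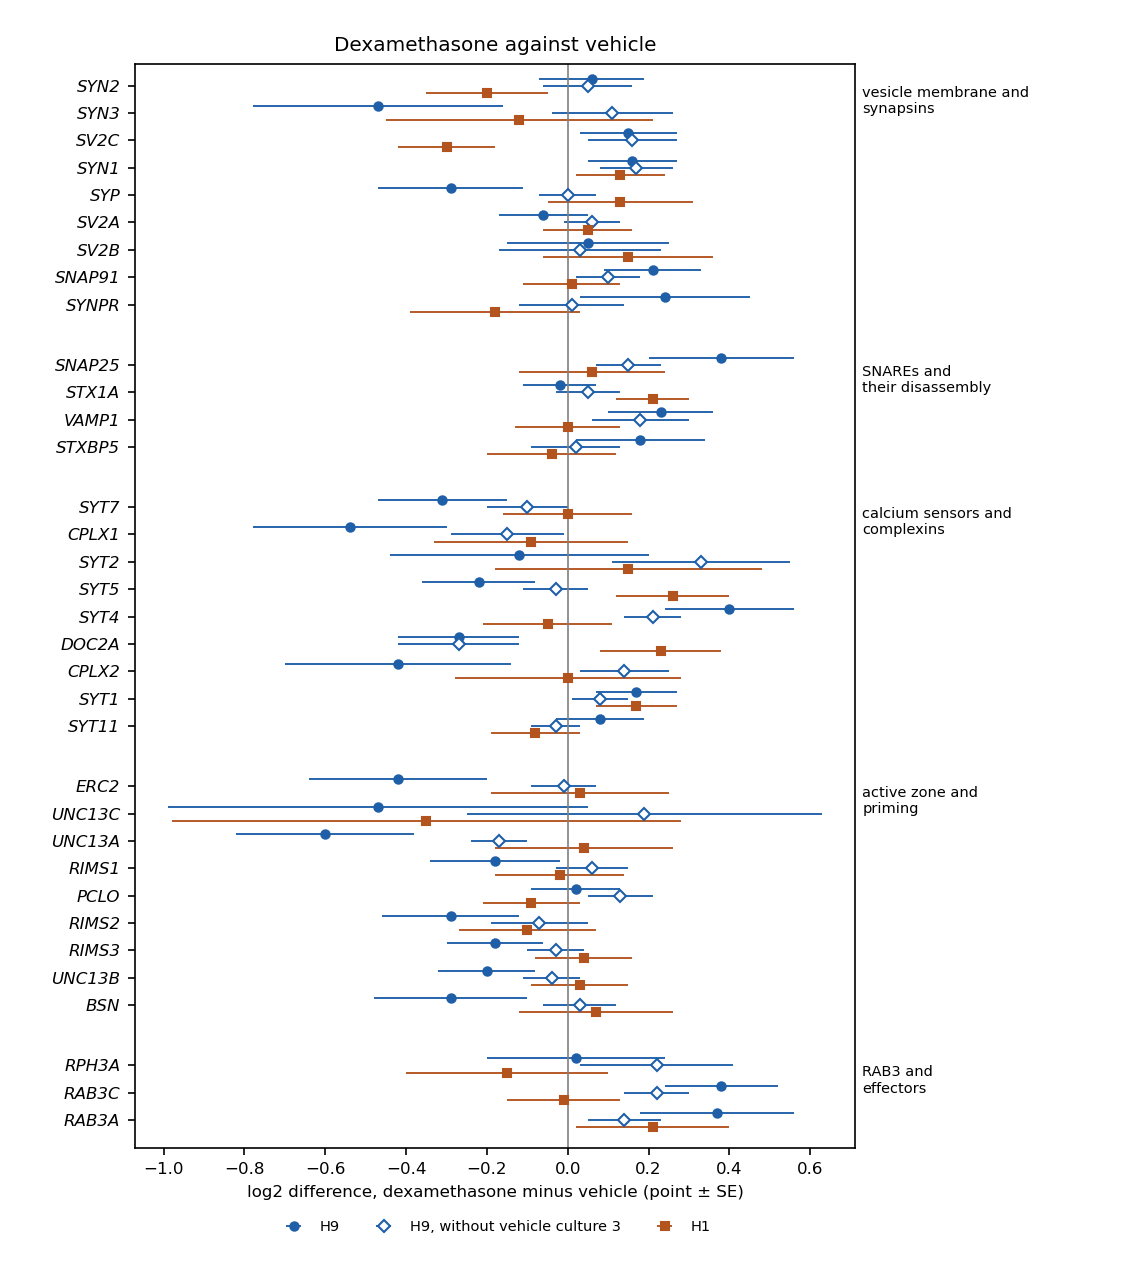
Log2 effect of dexamethasone against vehicle (points, with bars of 1 SE) for the 34 tested genes in H9, in H9 without vehicle culture 3 and in H1. None passes the test, and the H9 values farthest from 0, UNC13A (−0.60) and CPLX1 (−0.54), move to −0.17 and −0.15 when culture 3 is left out.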

How the data were processed

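The deposited counts are raw whole numbers of reads per gene, with 1 file for each library and no normalization by the authors. STAR 2.5.3a and HTSeq are named in the submitters' processing notes, as are hg38 and GRCh38.p10. Which annotation release was used, whether counting used strand, and what was done with multiply matching reads is not given in the sources used here. The labelled cell line and condition set each library's group. Flow cells are not tied to libraries in the labels, and the fits therefore hold no batch term.

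From the counts, filterByExpr of edgeR 4.0.16 kept 17819 genes (18098 without H9 vehicle culture 3), and libraries were scaled by TMM. edgeR's quasi-likelihood F-test was fitted with 1 mean per group over all 12 libraries (8 residual degrees of freedom). P-values were adjusted over all genes tested by Benjamini-Hochberg, with a threshold of 0.05. Standard errors are the log2 difference over the square root of F, and 95% intervals use these and the residual degrees of freedom. Levels are TMM-scaled CPM, and exon lengths and coordinates come from GENCODE 29 on GRCh38. Total counts of 14751168 to 27505804 limit precision mainly for genes of few reads. Alternatives used DESeq2 1.42.0 and limma 3.58.1 in R 4.3.3. The fit was tested on simulated data.

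The genes and the lists were chosen with earlier results of these data known. Given in every vehicle culture are, by rule, the 10 largest called differences in each direction with their relatives in the group, and for dexamethasone the 3 smallest p in each line, and further genes were added to this after their values had been seen. From the wider list the 3 largest in each direction are named. Pairs of sister cultures differed by more than sampling noise (chi-square per degree of freedom 4.08 to 10.4, and 167 and 175 for pairs with H9 vehicle culture 3).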

Additional observations from a re-analysis of the deposited data

How the results depend on the processing

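Counts of release genes that passed between the lines stayed within 1.5 times under other size factors (27 in vehicle), DESeq2 (27), limma-voom (27), no filter (25), and fits on only the 6 libraries compared (22 in vehicle, 29 with dexamethasone). The exception was scaling to neuron markers in vehicle, at 16 genes. These counts pool both directions, so they do not show a change of direction. Scaled to neuron markers, the dexamethasone cultures had 9 genes higher and 8 lower, against 24 and 1 with TMM scaling. STX1A passed there as higher with TMM scaling (0.34) and as lower with neuron marker scaling (−0.28). Leaving out each library in turn gave 25 to 31 genes in vehicle, 22 to 30 in dexamethasone, and 0 for each dexamethasone effect and for their difference. The highest counts came without H9 vehicle culture 3, where 58.6% and 64.6% of all genes passed, against 46.9% and 43.6% with all libraries. For the other fits named here with TMM or other size factors, the share of all genes is not given. Their counts, and those of the replicate block below, can therefore not be set against it. With neuron marker scaling and H9 vehicle culture 3 left out, an alternative also chosen after seeing the data, 1 gene, SV2C, passed as lower with dexamethasone in H1 (−0.42, adjusted p = 0.0309), and 19 passed between the lines in vehicle. Over fits without 1 library each, the line difference in vehicle ran from −0.18 to 0.59 for CPLX2 and from −0.05 to 0.19 for UNC13B, with the lowest values without H9 vehicle culture 3. Scaled to neuron markers SYT1 turned to −0.53, CPLX2 to −0.29 and UNC13B to −0.54, and, with that culture also left out, to −0.41, −0.79 and −0.66, with UNC13C at −0.05. The cause was not tested. A first form of the neuron scaling included TUBB3 and MAPT, and both were then left out for their low counts.

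With the culture number as a replicate block, 28 genes passed in vehicle (26 higher, 2 lower), 25 with dexamethasone and 0 for the treatment. Same-numbered cultures correlated in their deviations at −0.0145 to 0.113 in H9 and 0.0498 to 0.179 in H1. Differently numbered cultures correlated at −0.134 to 0.0841 in H9 and −0.178 to 0.0732 in H1. Each H1 vehicle culture thus correlated most with the treated culture of its own number. Whether the number pairs the cultures was not settled, and the main fit holds no such term. Depth limits UNC13C, VAMP2 and DOC2B most.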
